A study of Schmidtea mediterranea with 18 samples.

Results

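Of 82955 transcripts in the count table of a planarian regeneration time course, 60 were highest in APC RNAi, intermediate in control RNAi and lowest in Bcat RNAi at each of 6 days. These 60 are the subject here. They were chosen by their reads per 1000000 aligned reads (CPM), with A, B and C as the means over 6 days plus 0.1 CPM in APC, Bcat and control RNAi. The largest of A, B and C had to be at least 2.1, A/B at least 2, A/C at least 1.2 and B/C at most 0.83. Differences in level between treatments were therefore used in the choice and are given as description without a test. Trends over days were tested, within a treatment and between treatments. The choice fixed the order at each day from these same levels. It did not set a trend, but the trends are not independent of it.

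The animals were Schmidtea mediterranea of the asexual clonal strain CIW4, a flatworm that regrows missing body parts from stem cells. All groups were starved for 1 week, then given double-stranded RNA in 3 feeds and amputated 3 days later, and regenerating trunk fragments gave the polyA RNA sequenced at days 1 to 6. The APC RNAi group received RNA against apc, the Bcat RNAi group RNA against beta-catenin-1, and the control group a GFP sequence. Each of the 18 libraries was 1 pool of RNA from 3 biological replicates for 1 treatment and 1 day, so each SD is taken over 6 days and p-values reflect departures from a line over days, not the spread between animals. The label of the tissue is trunk, although the protocol speaks of tail pieces.

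In canonical Wnt signalling, beta-catenin accumulates in the nucleus and activates target genes together with DNA-binding factors of the TCF/LEF family, while the APC protein belongs to the complex that marks beta-catenin for degradation. In planarians the pathway sets the head-to-tail axis: animals depleted of beta-catenin-1 regrow heads at posterior wounds, and animals depleted of apc regrow tails at anterior wounds. The level order used here runs with the direction in which the 2 knockdowns are known to shift beta-catenin, but beta-catenin activity itself was not measured. The files pair no identifier with a gene name, so transcripts are given by identifier, without roles, and the levels of the RNAi targets were not read. In whole fragments, fewer cells of a type and less RNA per cell cannot be told apart.

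Reads aligned to transcripts ranged from 41549185 to 55885884 in the APC RNAi libraries, from 41832966 to 57679076 in the Bcat RNAi libraries and from 47683039 to 58308153 in the control libraries. Several whole-library measures moved with the treatment or the day. Transcripts with a mean below 1 CPM took 0.588% to 0.919% of the reads in APC RNAi, 0.95% to 1.31% in Bcat RNAi and 0.869% to 1.36% in control, where the share was lowest at day 1 and highest at day 6. The TMM scaling factor, which adjusts for such differences in composition, was 0.803 to 0.969 in APC RNAi, 1.01 to 1.13 in Bcat RNAi and 0.969 to 1.15 in control. The choice of the members is sensitive to this: with TMM factors 153 transcripts met the same conditions and with RLE size factors 191, and all 60 were among them both times.

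The conditions differed in how much they removed. Without the daily order 87 transcripts would have qualified, without the 2.1 CPM minimum 88, without the A/B condition 81, without the A/C condition 67 and without the B/C condition 61. Just inside and just outside the thresholds, the largest of A, B and C was 2.12 and 2.098 CPM, A/B was 2.02 and 1.9985, A/C was 1.21 and 1.198, and B/C was 0.801 and 0.846. Another 18 transcripts met the order on 5 days only. In 9 of them the day out of order was day 6, and in those 9 APC RNAi was still above control, while control was not above Bcat RNAi. The smallest daily step among the 60 was an APC RNAi over control ratio of 0.0049 on the log2 scale at day 3.

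In unscaled CPM, the summed level of the 60 was nearly the same at all days in APC RNAi, and lower at later days in the other treatments. It was 2021 CPM at day 1 and 1932 CPM at day 6 in APC RNAi, 702 CPM and 393.5 CPM in Bcat RNAi, and 1487 CPM and 1097 CPM in control. Over the 6 days it averaged 1976 CPM ± 39.2 in APC RNAi, 505 CPM ± 123 in Bcat RNAi and 1280.4 CPM ± 149 in control (SD, n = 6 libraries each). These sums leave out the TMM factors used for the slopes. At days 1 and 6 the factors were 0.834 and 0.969 in APC RNAi, 1.03 and 1.13 in Bcat RNAi, and 0.969 and 1.15 in control. The near-constant sum in APC RNAi therefore holds for unscaled CPM only. The 5 most abundant members made up 35.1% to 45.5% of this sum in every library. Individual levels spanned a wide range: means over days ran from 2.02 to 181.7 CPM with a median of 19.5 CPM in APC RNAi, from 0.0137 to 79.8 CPM with a median of 3.64 CPM in Bcat RNAi, and from 0.633 to 134.7 CPM with a median of 10.4 CPM in control. All transcripts that reached the same minimum of 2.1 CPM, 15799 in number, had median levels of 15.6 CPM in APC RNAi, 16.9 CPM in both other treatments.

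Most members lay closer to APC RNAi than to Bcat RNAi in control animals. The median log2 ratio of mean levels was 0.54 for APC RNAi over control (quartiles 0.43 and 0.82) and -1.26 for Bcat RNAi over control (quartiles -2.54 and -0.90). In 52 of the 60 the step down to Bcat RNAi was the larger one, and in 8 the step up to APC RNAi. At least 2-fold steps were seen in 11 members for APC RNAi, in 43 for Bcat RNAi and in 9 for both; 8-fold steps were seen in 10 members for Bcat RNAi and in 0 for APC RNAi. All 15799 transcripts over 2.1 CPM had daily medians between -0.20 and -0.07 for APC RNAi over control and between -0.04 and 0.06 for Bcat RNAi over control, so the steps up are larger when set against the bulk of transcripts.

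**Figure D1:**
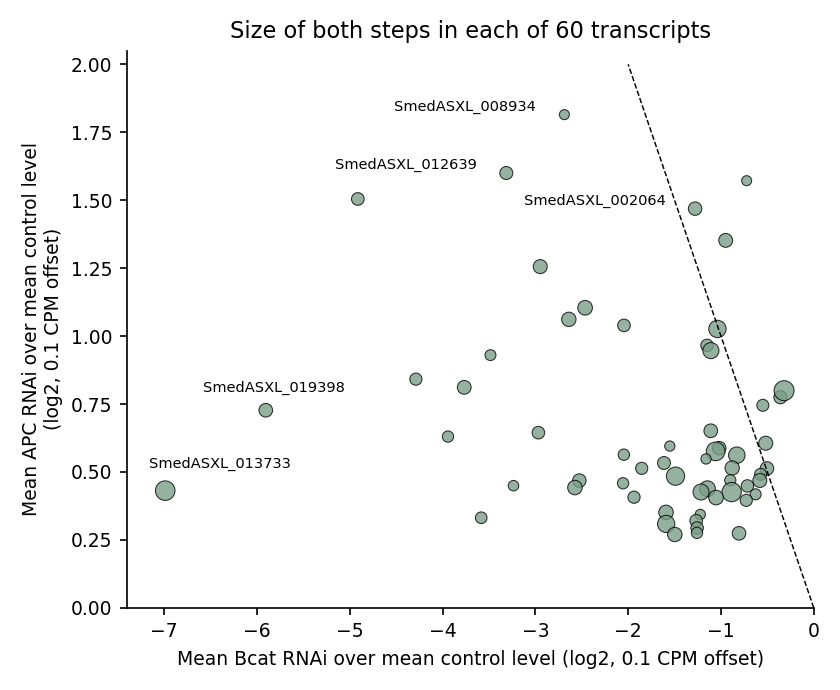
Each point is 1 of the 60 transcripts, placed by the log2 ratio of mean levels of Bcat RNAi over control (horizontal) and of APC RNAi over control (vertical), with 0.1 CPM added; larger points have a higher mean CPM and the dashed line marks steps of equal size. 52 points lie left of the line, where the step down to Bcat RNAi is larger, and the farthest left is SmedASXL_013733 at -6.99.

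The largest steps up were found in 2 transcripts that also had the largest smaller step. SmedASXL_012639 had a lowest, median and highest level of 19.7, 24.6 and 26.5 CPM in APC RNAi, 0.454, 0.718 and 0.938 CPM in Bcat RNAi, and 6.47, 7.94 and 8.68 CPM in control. The groups did not overlap in any pair, and the log2 ratio of means to control was 1.60 in APC RNAi but -3.31 in Bcat RNAi. SmedASXL_008934 was much rarer, at 1.43, 2.29 and 3.39 CPM in APC RNAi, 0, 0.00983 and 0.0412 CPM in Bcat RNAi, and 0.394, 0.631 and 0.912 CPM in control. Its groups did not overlap either, but the 6 Bcat RNAi libraries held only 4 reads of it together, so that its log2 ratio of -2.69 for Bcat RNAi is set by the added 0.1 CPM. Its ratio for APC RNAi was 1.81, the highest of the 60.

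The lowest ratios of Bcat RNAi to control were those of 2 other transcripts. SmedASXL_013733, an abundant transcript, had 161, 175 and 229.8 CPM as lowest, median and highest level in APC RNAi, 0.227, 0.479 and 2.96 CPM in Bcat RNAi, and 109, 124 and 183 CPM in control. APC RNAi and control overlapped across days, while Bcat RNAi lay far below both at every day, with a log2 ratio to control of -6.99. SmedASXL_019398 had 19.7, 28.2 and 34.2 CPM in APC RNAi, 0.0717, 0.169 and 0.309 CPM in Bcat RNAi, and 14.1, 16.1 and 19.9 CPM in control. Its Bcat RNAi libraries held 3 to 15 reads each, its lowest APC RNAi level lay just under its highest control level, and its log2 ratio to control was 0.73 in APC RNAi but -5.91 in Bcat RNAi.

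The 10 members that were at least 8-fold lower in Bcat RNAi than in control were all rare in Bcat RNAi. Their means there lay between 0.135 and 1.12 CPM, against 2.26 to 134.7 CPM in control. In 5 of them at least 1 Bcat RNAi library held fewer than 10 reads. The 33 members with a step of 2-fold to under 8-fold, which include SmedASXL_008934 with the lowest Bcat RNAi mean of all at 0.0137 CPM, had a median of 3.63 CPM in Bcat RNAi and 13.4 CPM in control. The 17 with a smaller step had 7.68 CPM in Bcat RNAi and 12 CPM in control as medians. The median log2 ratio of APC RNAi over control was 0.77, 0.53 and 0.51 in these classes, in the same order. Over all 60, each APC RNAi and control library held at least 10 reads of each member.

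Levels were also compared across different days. The lowest APC RNAi library was above the highest control library in 36 of 60, against 0.823% of the 15799 transcripts over 2.1 CPM. The lowest control library was above the highest Bcat RNAi library in 51 of 60, against 5.42%. In 30 members both held, against 0.272%. Because the choice used these levels, the shares are printed as description and nothing is read from them.

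The authors' deposited table, which compares the 2 knockdowns with all days pooled, lists 59 of the 60 members, all with a higher level in APC RNAi; it lists 7.51% of the 82955 transcripts in that direction. The log2 fold changes of the 59 in the authors' deposited table ran from 1.21 to 6.45 with a median of 1.96, against a median of 0.34 for everything listed as higher in APC RNAi. Of the 71 transcripts listed there with a log2 fold change of at least 2, 28 are members. The member not listed there is SmedASXL_068695, described further below. These values come from the same contrast as the choice and add no independent evidence.

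The levels of the 60 over days were then tested in each treatment as slopes in log2 units per day. The choice ordered these same daily levels, which limits the trends that could pass it. The slopes are therefore not independent of the choice. Falling slopes were frequent in Bcat RNAi and control, and fewer slopes passed the adjusted threshold in APC RNAi. In APC RNAi 3 members rose, where 1.58% of all 36235 transcripts tested rose, and 4 fell, where 1.15% fell (edgeR quasi-likelihood test; DESeq2 gave 3 and 5, and at an unadjusted p below 0.05 edgeR counted 13 rising and 11 falling). In Bcat RNAi 20 members fell, which is 33.3% of them against 2.25% of all tested, and 0 rose against 2.87% (edgeR quasi-likelihood test; DESeq2 gave 21 and 0, and at an unadjusted p below 0.05 edgeR counted 27 and 0). In control 21 fell, 35% of them against 7.24% of all tested, and 0 rose against 2.94% (edgeR; DESeq2 gave 24 and 0, and at an unadjusted p below 0.05 edgeR counted 29 and 2).

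Median slopes of the 60 were below 0 in Bcat RNAi and control. They were 0.01 with APC RNAi, -0.09 with Bcat RNAi and -0.08 with control, and 0.02, 0.00 and 0.01 for all tested transcripts. The Bcat RNAi median was -0.05 without the Bcat RNAi day 1 library, and the control median was -0.04 with TMM factors computed on transcripts averaging 4 CPM or more and also without the most abundant transcript in the library size. Among the 14983 tested transcripts that averaged 2.1 CPM or more, and so were nearer in abundance to the members, 2.6% fell under APC RNAi, 5.05% under Bcat RNAi and 16.4% under control RNAi, with a median slope of -0.03 in control. Of these 14983, 3.22% rose under APC RNAi, near the 5% of members, 5.79% under Bcat RNAi and 4.26% under control RNAi. At day 6, 0 members in APC RNAi were at least 2-fold lower in CPM than at day 1, against 0.304% of the 15799 transcripts over 2.1 CPM. The count was 13 in Bcat RNAi, against 1.16%, and 7 in control, against 0.658%. In APC RNAi 20% of the members were highest at day 1, 30% at day 5 and 18.3% at day 6, against 7.35%, 22.9% and 26.9% of those 15799. In Bcat RNAi 55% were highest at day 1, against 28.8%. In control 30%, 23.3% and 25% were highest at days 1, 2 and 3, against 19%, 13.3% and 9.3%.

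**Figure D2:**
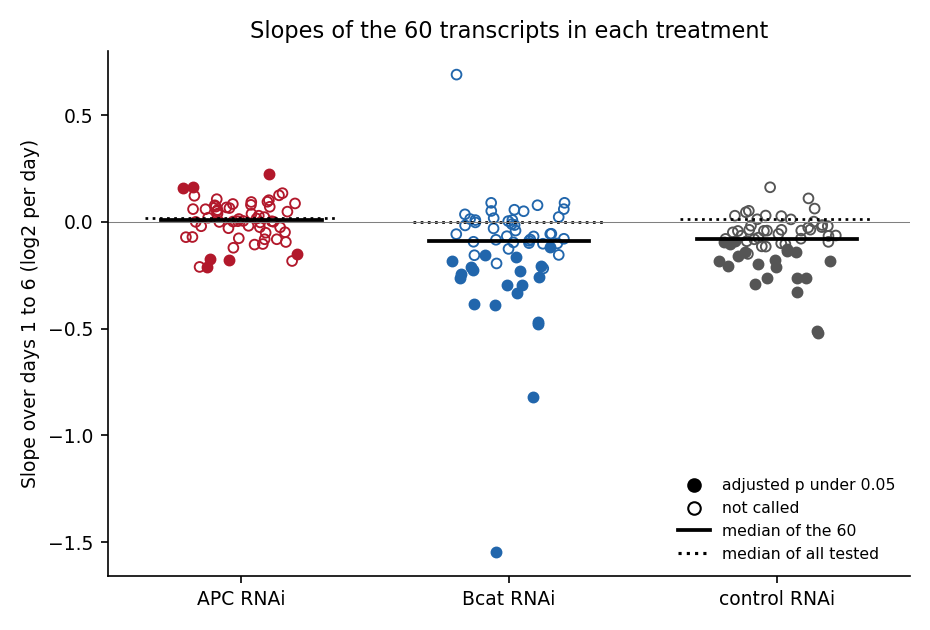
Slopes over days 1 to 6 (vertical axis, log2 units per day, edgeR) of the 60 transcripts in APC RNAi, Bcat RNAi and control; filled points passed an adjusted p of 0.05, solid lines are the medians of the 60 and dotted lines those of all 36235 tested transcripts. Filled points lie below 0 in Bcat RNAi (20) and control (21), whereas APC RNAi has 3 above and 4 below; horizontal scatter has no meaning.

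These counts rested in part on the first and last days. Without day 1, 9 members fell in Bcat RNAi and 9 in control; without day 6, 16 fell in Bcat RNAi and 9 in control. Leaving out the Bcat RNAi day 1 library alone gave 9 falling members in Bcat RNAi, and leaving out the control day 1 library alone gave 8 in control. With days 4 to 6 set against days 1 to 3 instead of a line, 9 fell in Bcat RNAi and 2 in control. The control libraries also changed as a whole over days, as given above; 18 members fell in control with loess offsets that remove a shift with abundance, and 15 with library sizes that leave out the most abundant transcript and no scaling factor.

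The falling slopes overlapped between treatments. Of the 28 members that fell in Bcat RNAi or control, 13 fell in both, 7 in Bcat RNAi without a call in control, and 8 in control without a call in Bcat RNAi. Only 3 fell in all treatments. The other 32 members fell in neither Bcat RNAi nor control; 3 of them rose in APC RNAi and 29 had no called slope in any treatment. Those 29 had a median level of 8.54 CPM over all libraries, against 16.9 CPM for the 28. A missing call does not show a constant level, and differences between treatments were tested separately.

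Among the falling members, SmedASXL_034206 and SmedASXL_002064 had the steepest control slopes. From day 1 to day 6 SmedASXL_034206 read 41, 37.9, 27, 26.4, 29.9 and 21.9 CPM in APC RNAi, 11.6, 6.71, 6.48, 5.9, 2.93 and 3.26 CPM in Bcat RNAi, and 21.7, 18.3, 12.4, 8.38, 6.59 and 4.35 CPM in control. It fell in all treatments, per day by 0.18 on the log2 scale in APC RNAi (SE 0.04, adjusted p = 0.0147), by 0.39 in Bcat RNAi (SE 0.05, adjusted p = 2.27e-05) and by 0.52 in control (SE 0.04, adjusted p = 1.36e-07, edgeR). Control thus stood well between the knockdowns at day 1 and next to Bcat RNAi at day 6. SmedASXL_002064 followed the same course, with a control slope of -0.51 (SE 0.05, adjusted p = 8.31e-07, edgeR) and levels of 35.2 and 19.7 CPM at days 1 and 6 in APC RNAi, 8.68 and 1.63 CPM in Bcat RNAi, and 19 and 3.4 CPM in control. The control call of SmedASXL_002064 was lost with days 4 to 6 set against days 1 to 3 (adjusted p = 0.0544, edgeR), and the APC RNAi call of SmedASXL_034206 without day 1, 2 or 6 (adjusted p = 0.255, 0.0654 and 0.183, edgeR) and with days 4 to 6 set against days 1 to 3 (adjusted p = 0.587, edgeR).

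SmedASXL_008627, the most abundant member with a mean of 117.6 CPM, fell in Bcat RNAi and control alone. It read 169, 183, 177, 172, 171 and 169 CPM in APC RNAi, 113, 98.3, 99.3, 72.4, 47.1 and 48.8 CPM in Bcat RNAi, and 135, 121, 116, 91.9, 78.6 and 55.2 CPM in control at days 1 to 6. Its slopes were -0.03 in APC RNAi (SE 0.03, adjusted p = 0.702), -0.29 in Bcat RNAi (SE 0.03, adjusted p = 4.75e-06) and -0.29 in control (SE 0.03, adjusted p = 2.53e-06, edgeR). In unscaled CPM, APC RNAi stayed between 169 and 183 CPM while the other treatments came down side by side. The uncalled slope does not show a constant level in APC RNAi.

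The other named slopes in APC RNAi were 1 fall and 2 rises. SmedASXL_013906 fell there by 0.21 on the log2 scale each day (SE 0.05, adjusted p = 0.026, edgeR), with 123, 110.1, 139, 89.5, 67.6 and 72.5 CPM at days 1 to 6 in APC RNAi, 17.6 to 36 CPM in Bcat RNAi, and 84.3 CPM at day 1 but 35.5 to 51.5 CPM later in control. It also fell in control, by 0.26 (SE 0.05, adjusted p = 0.00155, edgeR). Its APC RNAi call was lost without day 4, 5 or 6 (adjusted p = 0.0557, 0.0556 and 0.116, edgeR), with days 4 to 6 set against days 1 to 3 (0.193) and without the most abundant transcript in the library size (0.057). SmedASXL_008934, the rare transcript above, rose by 0.23 per day in APC RNAi (SE 0.05, adjusted p = 0.0183, edgeR), and SmedASXL_005489 by 0.16 (SE 0.03, adjusted p = 0.00855, edgeR). SmedASXL_005489 read 15.3 CPM at day 1 and 28 CPM at day 6 in APC RNAi, 11.2 and 12.5 CPM in Bcat RNAi, and 13.3 and 18 CPM in control. Both lost the call without day 1 (adjusted p = 0.269 and 0.199, edgeR) and with days 4 to 6 set against days 1 to 3 (0.218 and 0.097), and SmedASXL_008934 also without day 2 (0.0565) and with loess offsets (0.064).

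**Figure D3:**
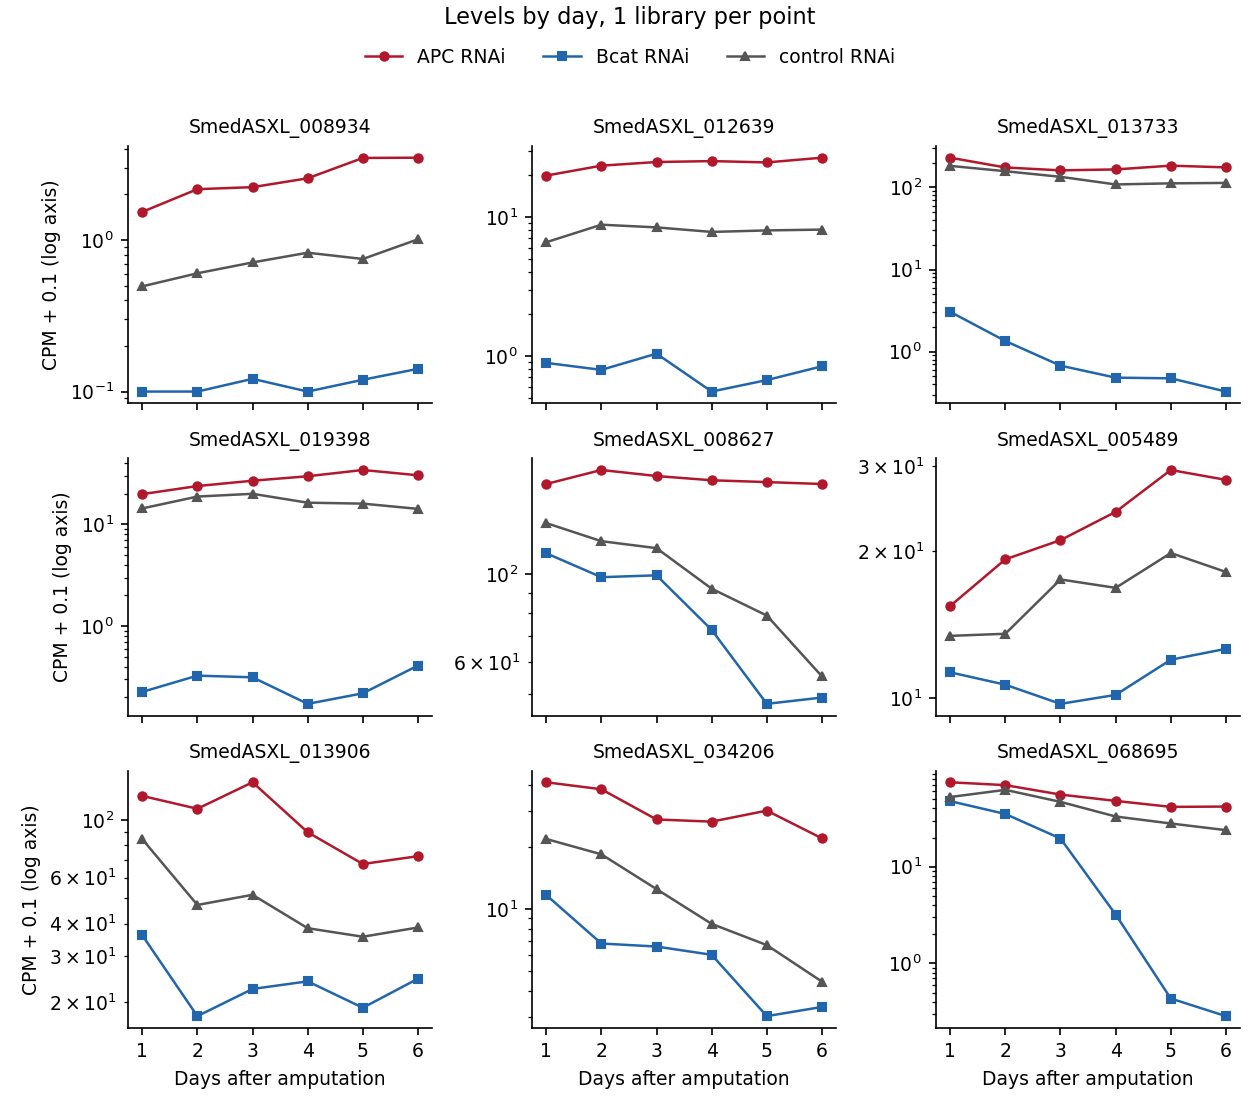
Levels (CPM plus 0.1, log axis) of 9 named transcripts at days 1 to 6 after amputation in APC RNAi (circles), Bcat RNAi (squares) and control (triangles), 1 library per point. SmedASXL_068695 starts at 47.5 CPM in Bcat RNAi and ends at 0.186 CPM, whereas SmedASXL_013733 is already at 2.96 CPM at day 1.

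The median distance between APC RNAi and control was larger at later days. Over days 1 to 6 the median log2 ratio of APC RNAi over control was 0.39, 0.51, 0.49, 0.60, 0.64 and 0.79, and in 54 of 60 members it was larger on average at days 4 to 6 than at days 1 to 3. The median change was 0.20, against 0.00 for the 15799 transcripts over 2.1 CPM. For Bcat RNAi over control the median was -1.24, -1.49, -1.43, -1.53, -1.53 and -1.50 over the same days. The step was larger at days 4 to 6 in 38 members and smaller in 22, with a median change of -0.09, against -0.02 for those 15799. All these ratios are of unscaled CPM, and the scaled slopes below did not show this majority for Bcat RNAi. The median step towards Bcat RNAi was thus near its later size by day 2, but members differed. Their changes in this ratio from days 1 to 3 to days 4 to 6 ran from -4.51 to 0.63. In members with few Bcat RNAi reads the added 0.1 CPM limits the step. The choice fixed the sign of each daily ratio, which limits the trends the ratios could show.

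**Figure D4:**
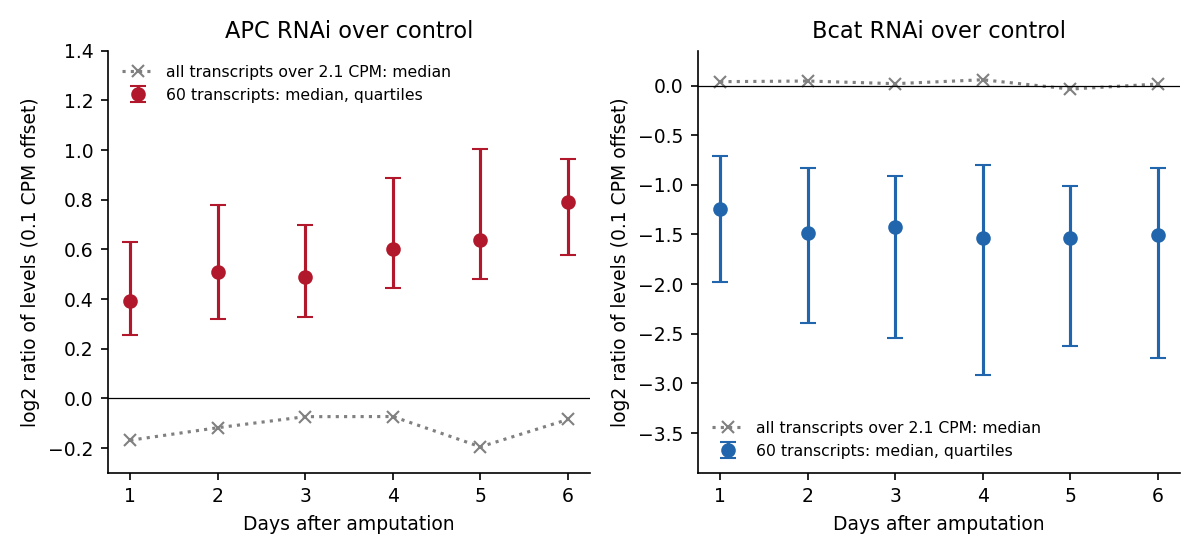
Median and quartiles (bars) over the 60 transcripts of the log2 ratio of APC RNAi over control (left) and Bcat RNAi over control (right) at days 1 to 6, with the median of all 15799 transcripts over 2.1 CPM as crosses. The left median runs between 0.39 and 0.79 and the right one between -1.24 and -1.53, while the crosses stay between -0.20 and 0.06.

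Slope differences tested this for each transcript, and few passed. The slope was higher in APC RNAi than in control in 57 of 60 members and in 20629 of all 36235 tested transcripts, with median differences of 0.09 and 0.02 log2 units per day; the median was 0.03 among the 14983 that averaged 2.1 CPM or more. By test 2 members had a higher slope in APC RNAi, where 0.0359% of all tested did, and 0 a lower one, where 0.00276% did (edgeR quasi-likelihood test; DESeq2 gave 3 and 0, and at an unadjusted p below 0.05 edgeR counted 25 and 0). These were SmedASXL_034206, with a difference of 0.34 (SE 0.06, adjusted p = 0.0209), and SmedASXL_008627, with 0.26 (SE 0.04, adjusted p = 0.0161, edgeR). With day as a replicate block the count was 3. It was 0 with loess offsets, with TMM factors computed on transcripts averaging 4 CPM or more, without the most abundant transcript in the library size, with days 4 to 6 set against days 1 to 3 and without day 1, 2 or 6, and 1 without day 5 or without the control day 1 library.

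The slope was lower in Bcat RNAi than in control in 27 of 60 members and higher in 33, with a median difference of 0.01 log2 units per day. It was lower in 17961 of all 36235 tested transcripts, with a median difference of 0.00. By test 3 members had a lower slope in Bcat RNAi than in control, where 0.0138% of all tested did, and 0 a higher one, where 0.0193% did (edgeR quasi-likelihood test; DESeq2 gave 4 and 0, and at an unadjusted p below 0.05 edgeR counted 10 and 3). Both sets of differences share the control libraries. With day as a replicate block 5 members had a lower slope in Bcat RNAi; without day 1 it was 1, and without the Bcat RNAi day 1 library 2 had a lower and 2 a higher slope. With days 4 to 6 set against days 1 to 3 it was 1. The 3 differences ran from -1.22 to -0.44 log2 units per day.

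SmedASXL_068695 had the strongest of these. From day 1 to day 6 it read 74.5, 69.6, 55.6, 47.8, 41.4 and 41.8 CPM in APC RNAi, 47.5, 35, 19.5, 3.11, 0.334 and 0.186 CPM in Bcat RNAi, and 52.4, 62.2, 46.7, 32.9, 27.9 and 23.8 CPM in control. Bcat RNAi was thus close to control at day 1 and nearly without reads at day 6, when its library held 9 reads. The slope was -1.54 in Bcat RNAi (SE 0.11, adjusted p = 4.05e-08), -0.33 in control (SE 0.08, adjusted p = 0.0117) and -0.21 in APC RNAi (SE 0.08, adjusted p = 0.154, edgeR). The difference of Bcat RNAi minus control was -1.22 (SE 0.15, adjusted p = 0.000536, edgeR) and stayed past the threshold in all 16 alternative analyses.

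SmedASXL_013733 also went down further in Bcat RNAi, but from a level that was already low. It read 2.96, 1.25, 0.576, 0.382, 0.374 and 0.227 CPM there at days 1 to 6, a slope of -0.82 (SE 0.09, adjusted p = 5.5e-06, edgeR), against -0.20 in control (SE 0.04, adjusted p = 0.00199, edgeR). The difference of -0.62 (SE 0.10, adjusted p = 0.00673, edgeR) was lost without day 1 (-0.46, adjusted p = 0.358), without day 6 (adjusted p = 0.0745), without the Bcat RNAi day 1 library (-0.43, adjusted p = 0.394) and with days 4 to 6 set against days 1 to 3 (adjusted p = 1).

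Levels of individual members varied more over days in Bcat RNAi than in the other treatments. The median coefficient of variation over the 6 days was 13.4% for APC RNAi, 26.9% for Bcat RNAi and 13.9% for control, against 10.1%, 8.67% and 8.87% for the 15799 transcripts over 2.1 CPM. Members were chosen to be lowest in Bcat RNAi, where their median level was 3.64 CPM, against 16.9 CPM for those 15799. How much of the variation came from few reads or from falling slopes was not tested. Correlations between members over days differed widely. They used unscaled CPM, variation from few reads in Bcat RNAi was not removed, and other transcripts were not examined. Between pairs of members, the correlation of log2 CPM deviations from the treatment means over 18 libraries had a median of 0.173 with quartiles of -0.105 and 0.46, as a description over libraries that share depth and composition. It exceeded 0.9 in 16 of 1770 pairs. SmedASXL_002064 and SmedASXL_034206 reached 0.985, and SmedASXL_013906 reached 0.990 with the member of the preceding identifier number. The sources used here do not say how reads that match several transcripts were assigned, so such pairs may be isoforms or copies that share reads, and their separate values are uncertain. In 5 pairs the identifier numbers were consecutive, with correlations from -0.22 to 0.990.

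Another 156 transcripts had the reverse order, Bcat RNAi over control over APC RNAi at every day under the mirrored thresholds. They were chosen from these same levels, so their slopes are not independent of that choice either. The 156 had mostly positive slopes in all treatments, whereas most of the 60 had negative slopes in Bcat RNAi and control. Of all 36235 tested transcripts, 18123 had positive slopes in Bcat RNAi and 20013 in control. In APC RNAi 36 of the 60 had positive slopes, near the share of all tested transcripts, 21300 of 36235. In Bcat RNAi 0 of the 60 rose and 20 fell, against 74 and 0 of the 156 and 2.87% and 2.25% of all tested (edgeR quasi-likelihood test). In control 0 of the 60 rose and 21 fell, against 47 and 2 of the 156 and 2.94% and 7.24% of all tested. In APC RNAi 3 of the 60 rose and 4 fell, against 18 and 4 of the 156 and 1.58% and 1.15% of all tested. Median slopes of the 156 were 0.04 with APC RNAi, 0.12 with Bcat RNAi and 0.09 with control. The difference between the sets was not tested.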

How the data were processed

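The authors deposited raw read counts per SmedASXL transcript for 18 libraries, with 2 rows that name no transcript (total and unaligned reads, 5.22% of reads unaligned) and no normalization. Tools named in the submitters' processing notes are Bowtie2 2.2.4, bcl2fastq 1.8.3 and DESeq2; the sources used here do not give settings, strand use or a genome build. The authors' deposited comparison table holds DESeq2 log2 fold changes, with standard errors on the log2 scale, p-values, a test score and a mean normalized signal; per the file headers it lists adjusted p-values of at most 0.05 and at least 20 counts. Of it, listing and the log2 fold changes were used.

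CPM here is counts over aligned reads, unscaled; transcript counts summed to aligned reads in every library. The test was edgeR 4.0.16 (R 4.3.3) on all 18 libraries: filterByExpr kept 36235 transcripts, all 60 members among them, scaled by TMM and fitted with treatment and a day slope per treatment (glmQLFit, glmQLFTest, with 12 degrees of freedom left). The Benjamini-Hochberg adjustment ran over all tested, with a threshold of 0.05. Alternatives were other scalings, no filter, DESeq2 1.42.0, late against early days, a replicate block and left-out days.

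The labels pair libraries of a replicate number by day; same-day deviations correlated between -0.0594 and 0.616. No libraries were duplicates (chi-square over degrees of freedom 9.65 or more). Tested on simulated counts, 74% of exactly linear slopes of 0.2 per day were called for APC RNAi, 80% for Bcat RNAi and 86% for control, and 41% and 55% of slope differences of 0.2 for APC and Bcat RNAi, with 3 to 8 false calls among 34827 to 34942 transcripts. Simulated transcripts had the same base level in every treatment, whereas members were lowest in Bcat RNAi (lower quartile of means 0.958 CPM). The shares for Bcat RNAi may therefore not apply to members with few reads there. Simulated counts were also drawn independently, with no composition shift shared within a library or day. The false calls therefore do not give the rate of false calls in these data.

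Members and lists were chosen with earlier results of these data known. Named transcripts were, at most 2 each way, the extremes of each step, level and called slope. Gene lists were not used, since the files give no names. Depth, 41549185 to 58308153 aligned reads, limits members with few reads in Bcat RNAi.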

Additional observations from a re-analysis of the deposited data

Results flagged for a closer look

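The day 1 library stood apart from the other 5 days of its treatment in 4 of 33 sets of 6 levels examined. About 1 in 20 would be marked by chance if levels had no trend over days, but most of these transcripts were named for extreme steps or steep slopes, so this rate does not apply to them directly. These were SmedASXL_013733 in APC RNAi at 229.8 CPM and in Bcat RNAi at 2.96 CPM, SmedASXL_002064 in Bcat RNAi at 8.68 CPM, and SmedASXL_013906 in control at 84.3 CPM, each the highest of its treatment.

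Slopes over days differed by test between a knockdown and control in 4 named transcripts. For APC RNAi minus control the difference was 0.34 log2 units per day in SmedASXL_034206 and 0.26 in SmedASXL_008627, and for Bcat RNAi minus control it was -1.22 in SmedASXL_068695 and -0.62 in SmedASXL_013733 (edgeR quasi-likelihood test). Only the call of SmedASXL_068695 held in all 16 alternative analyses. The call was lost in 9 of 16 for SmedASXL_034206, in 7 for SmedASXL_008627 and in 4 for SmedASXL_013733.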

How the results depend on the processing

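The number of transcripts in the order ranged from 56 to 76 when 1 day was left out and was 58 with an offset of 1 CPM (51 shared), 54 with a minimum of 4 CPM, 88 with none and 64 without the most abundant transcript in the library size, but 153 with TMM and 191 with RLE factors. Members falling in Bcat RNAi numbered 9 to 20 without 1 day and 9 without the Bcat RNAi day 1 library; none rose under any setting run. Members falling in control numbered 9 to 24 without 1 day and 8 without the control day 1 library; in control 2 rose with TMM factors computed on transcripts averaging 4 CPM or more, 1 with loess offsets and 3 without the most abundant transcript in the library size. In APC RNAi 0 to 5 rose and 0 to 8 fell without 1 day; 7 fell with loess offsets and 7 without the Bcat RNAi day 1 library, and 9 rose without the most abundant transcript. With days 4 to 6 set against days 1 to 3, 0 rose and 0 fell in APC RNAi, 9 fell in Bcat RNAi and 2 in control. Higher slopes in APC RNAi than in control numbered 0 to 2 without 1 day, 4 with no low-count filter, 1 without the control day 1 library and 0 with loess offsets, with TMM factors computed on transcripts averaging 4 CPM or more, without the most abundant transcript and with late against early days. Lower slopes in Bcat RNAi than in control numbered 1 to 3 without 1 day and 1 with late against early days; without the Bcat RNAi day 1 library 2 were higher. With the replicate block, that is day as a factor, they numbered 5, and those higher in APC RNAi 3. The causes were not tested. Leaving out single libraries, and the most abundant transcript, were chosen after seeing the data. The 12 named slopes and slope differences that were recomputed kept their sign under every setting run; other slopes printed for named transcripts were not recomputed.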
